A study of Mus musculus with 12 samples.

Results

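Small nucleolar RNAs (snoRNAs) were followed here in nascent and total RNA of mouse macrophages answering lipopolysaccharide (LPS), a part of the outer membrane of Gram-negative bacteria. Entries were taken from the array where a probe set carried exactly 1 annotated symbol beginning with Snord or Snora and a number, and for a symbol with several such probe sets the one with the highest mean log2 intensity over 12 arrays was kept. This gave 51 entries of the 19938 genes tested, of which 31 were box C/D (Snord) and 20 box H/ACA (Snora). A further 41 snoRNA probe sets carried several symbols and were not used. The probes may read the host transcript as well as the mature snoRNA.

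The cells were macrophages differentiated from bone marrow of C3H/HeN mice, grown with IL-3, IL-6 and SCF and with L-cell conditioned medium as a source of M-CSF. They were left untreated (0 min) or stimulated for 45 or 270 min with LPS at 100 ng/ml, and every culture, the untreated ones included, received 200 µM 4-thiouridine for its last 35 min. Thiol-labelled RNA was biotinylated and bound to streptavidin beads, and this fraction is called nascent RNA; total RNA is the RNA before that step. Each of the 6 groups (nascent and total RNA at 3 times) held 2 arrays, 1 from each of 2 independent experiments. For each gene limma pooled the spread between these few arrays over groups and drew it toward a trend over all genes. In comparisons between fractions this variance prior had 16.51 degrees of freedom, against 3 from the gene's own arrays. In comparisons between times it had 7.38 against 6. The p-values and SEs thus rest in large part on the spread of other genes. Whether the mice or marrow were pooled is not given in the sources used here. Nascent RNA was cleaned on silica spin columns after elution and total RNA was not, the amplification started from 100 ng for the nascent and 200 ng for the total fraction, and the part of these steps in the results was not tested.

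Values are log2 intensities. A signal is called above background where it exceeds the 95th percentile of 1015 olfactory receptor genes, which lay between 6.19 and 6.82 on the 12 arrays. All 8 macrophage markers (among them Csf1r, Cd68 and Adgre1) were above that level on every array. Of the markers listed for other cell types, 3 were (Cd3e of T cells, Col1a1 of stroma, Kit of progenitors). Of 4 mast cell and basophil markers, 0 were above it on every array and 1 was on no array. The highest mean among these 4 was 7.19, and their joint mean ran from 5.15 to 7.53 between arrays. The part of other cell types in the results was not tested. As the RNA came from whole cultures, fewer cells of a type and less RNA per cell cannot be told apart.

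Most snoRNAs of vertebrates lie in introns of host genes and are trimmed out of the spliced intron. Box C/D snoRNAs bind fibrillarin, Nop56, Nop58 and Snu13 and guide 2′-O-methylation of ribosomal and spliceosomal RNA. Box H/ACA snoRNAs bind dyskerin, Gar1, Nhp2 and Nop10 and guide the change of uridine to pseudouridine. Mature snoRNAs are stable, whereas a spliced intron is short-lived apart from the snoRNA in it. Many hosts make ribosomal proteins or translation factors, and others are long non-coding RNAs such as Gas5 and the Snhg genes.

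In the RefSeq gene table (build GRCm38.p6), which held all 51 entries, 47 lay within exactly 1 other gene, 37 of them within a protein-coding gene and 10 within a long non-coding RNA. A further 3 lay within several genes. Snord118, the U8 snoRNA with a gene of its own, lay in none. Containment was read without strand. Annotated lengths ran from 45 to 148 bases in the box C/D entries (median 68) and from 61 to 205 in the box H/ACA entries (median 125).

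The starts of non-coding hosts are shown first, since many snoRNA hosts begin transcription within a run of pyrimidines, the letters shared with ribosomal protein genes. Each line gives 20 bases before and 25 bases from the RefSeq start, 5′ to 3′ on the gene's strand, with the pyrimidine run that covers the start in capitals.
2410006H16Rik (host of Snord49a and Snord49b, chr11:62602857-62602901, + strand): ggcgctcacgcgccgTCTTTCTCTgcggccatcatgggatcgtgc
Snhg12 (host of Snora16a and Snora44, chr4:132308658-132308702, + strand): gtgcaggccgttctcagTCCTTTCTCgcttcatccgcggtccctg
Gas5 (contains Snord47, chr1:161035146-161035190, + strand): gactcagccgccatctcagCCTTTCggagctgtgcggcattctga
Snhg1 (host of Snord22, chr19:8723467-8723511, + strand): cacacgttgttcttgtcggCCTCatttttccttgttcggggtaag
Snhg3 (host of Snora73a and Snora73b, chr4:132353662-132353706, - strand): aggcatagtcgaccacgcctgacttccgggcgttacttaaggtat

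The run was 9 bases long in 2410006H16Rik and in Snhg12, 6 in Gas5 and 4 in Snhg1, and no run covered the start given for Snhg3. A run of at least 5 pyrimidines covered the start in 5 of 9 windows of non-coding hosts (55.6%), in 11 of 33 windows of all hosts (33.3%) and in 10.1% of all 32851 RefSeq promoter windows. Gas5 has a second start in the table, which no run covered.

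In unstimulated cells the snoRNA entries were for the most part much higher in nascent than in total RNA. Of 31 box C/D entries, 20 were higher and 1 was lower, and of 20 box H/ACA entries 17 were higher and 0 lower (limma on the within-culture differences, adjusted p below 0.05 over all genes). Over all genes 7.58% were called higher and 8.42% lower. The median nascent over total difference was 1.07 for box C/D, 1.65 for box H/ACA and 0.01 for all genes. Of the 100 genes with the largest nascent over total difference, 22 were snoRNA entries, 11 of each class.

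Snord87, a box C/D entry that lies within both Mcmdc2 and Snhg6, stood first of all 19938 genes in this comparison at each time. Its nascent levels in experiments 1 and 2 were 8.77 and 9.56 at 0 min, 8.40 and 9.25 at 45 min, and 9.43 and 9.79 at 270 min. Its total RNA levels were 5.85 and 6.82, then 4.94 and 6.78, then 6.49 and 6.99. Every nascent array was above every total array, and experiment 2 was the higher in all 6 groups. In total RNA 1 of 2 arrays, that of experiment 2, was above background at 0 and at 45 min, and both were at 270 min. Nascent exceeded total by 2.83 ± 0.23 at 0 min (mean of 2 cultures, limma SE, adjusted p = 2.49e-07). It did so by 2.97 at 45 min and 2.87 at 270 min. The SE came from the spread pooled over 6 cultures and drawn toward the trend over all genes.

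Snord14e, which lies in the chaperone gene Hspa8, was the brightest box C/D entry. It read 11.76 and 11.74 in nascent RNA and 9.48 and 9.87 in total RNA at 0 min. The nascent arrays stood well clear of the total arrays, by 2.07 ± 0.19 (adjusted p = 6.82e-07). Snora3, the brightest box H/ACA entry, lies in the ribosomal protein gene Rpl27a. It read 9.69 and 10.04 in nascent and 7.98 and 7.74 in total RNA, a difference of 2.01 ± 0.22 (adjusted p = 3.53e-06). Snora70, in the ribosomal protein gene Rpl10, was 2.00 ± 0.25 higher in nascent RNA, but by 1.37 in experiment 1 and 2.63 in experiment 2. Snora31, in Tpt1, the gene of translationally controlled tumour protein, read 8.46 and 9.44 in nascent and 7.12 and 6.91 in total RNA, and nascent exceeded total by 1.93 ± 0.24 (1.34 in experiment 1 and 2.52 in experiment 2).

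Among the other large differences at 0 min were those of Snord95 (2.18 ± 0.25, with 1.57 in experiment 1 and 2.78 in experiment 2), which lies in the ribosomal scaffold gene Rack1, and Snord73b (1.94 ± 0.27) in the ribosomal protein gene Rps3a1. Snora33, in Rps12, was higher by 1.94 ± 0.22, and Snora7a, in Rpl32, by 1.87 ± 0.28 (1.04 in experiment 1 and 2.69 in experiment 2). For 7 of the 21 called box C/D entries and 1 of the 17 called box H/ACA entries the total RNA arrays all lay under background, so their ratios are bounds where one can be given. Snord37, in the elongation factor gene Eef2, was at least 3.79-fold higher in nascent RNA, with measured means of 8.20 in nascent and 5.69 in total RNA (adjusted p = 2.55e-05). Its difference was 1.46 in experiment 1 and 3.56 in experiment 2. Snora2b, in Kansl2, was at least 1.90-fold higher.

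The pattern held at both times of LPS. At 45 min 20 box C/D entries were higher and 2 lower in nascent RNA, and 18 box H/ACA entries were higher and 0 lower, with 11.2% of all genes called higher and 14.2% lower. The box C/D count rested on experiment 1: without its culture at 45 min it was 7, and 13 of 20 box H/ACA entries were then called higher. At 270 min 19 box C/D entries were higher and 3 lower, and 17 box H/ACA entries were higher and 0 lower, against 6.24% and 9.03% of all genes. Median differences were 1.00 and 1.55 at 45 min for box C/D and box H/ACA, and 1.16 and 1.38 at 270 min, beside 0.15 and 0.05 for all genes.

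Snord61, in the RNA-binding protein gene Rbmx, differed by 1.84, 2.14 and 2.25 at 0, 45 and 270 min (2.76 and 1.53 in experiments 1 and 2 at 45 min). In total RNA it was above background on both arrays at 0 min and on 1 of 2 at 45 and at 270 min. Snord47, within Gas5, differed by 1.46, 2.27 and 2.05 (3.03 and 1.496 in experiments 1 and 2 at 45 min), with 1 of 2 total arrays above background at each time. Snora41, in the elongation factor gene Eef1b2, differed by 1.81, 2.42 and 2.04. In total RNA 1 of 2 arrays was above background at 0 and at 45 min and neither at 270 min, where it was at least 3.60-fold higher. Snora20, in the chaperonin gene Tcp1, differed by 1.74, 1.67 and 1.85, with 1 of 2 total arrays above background at 45 min and both at the other times.

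**Figure D1:**
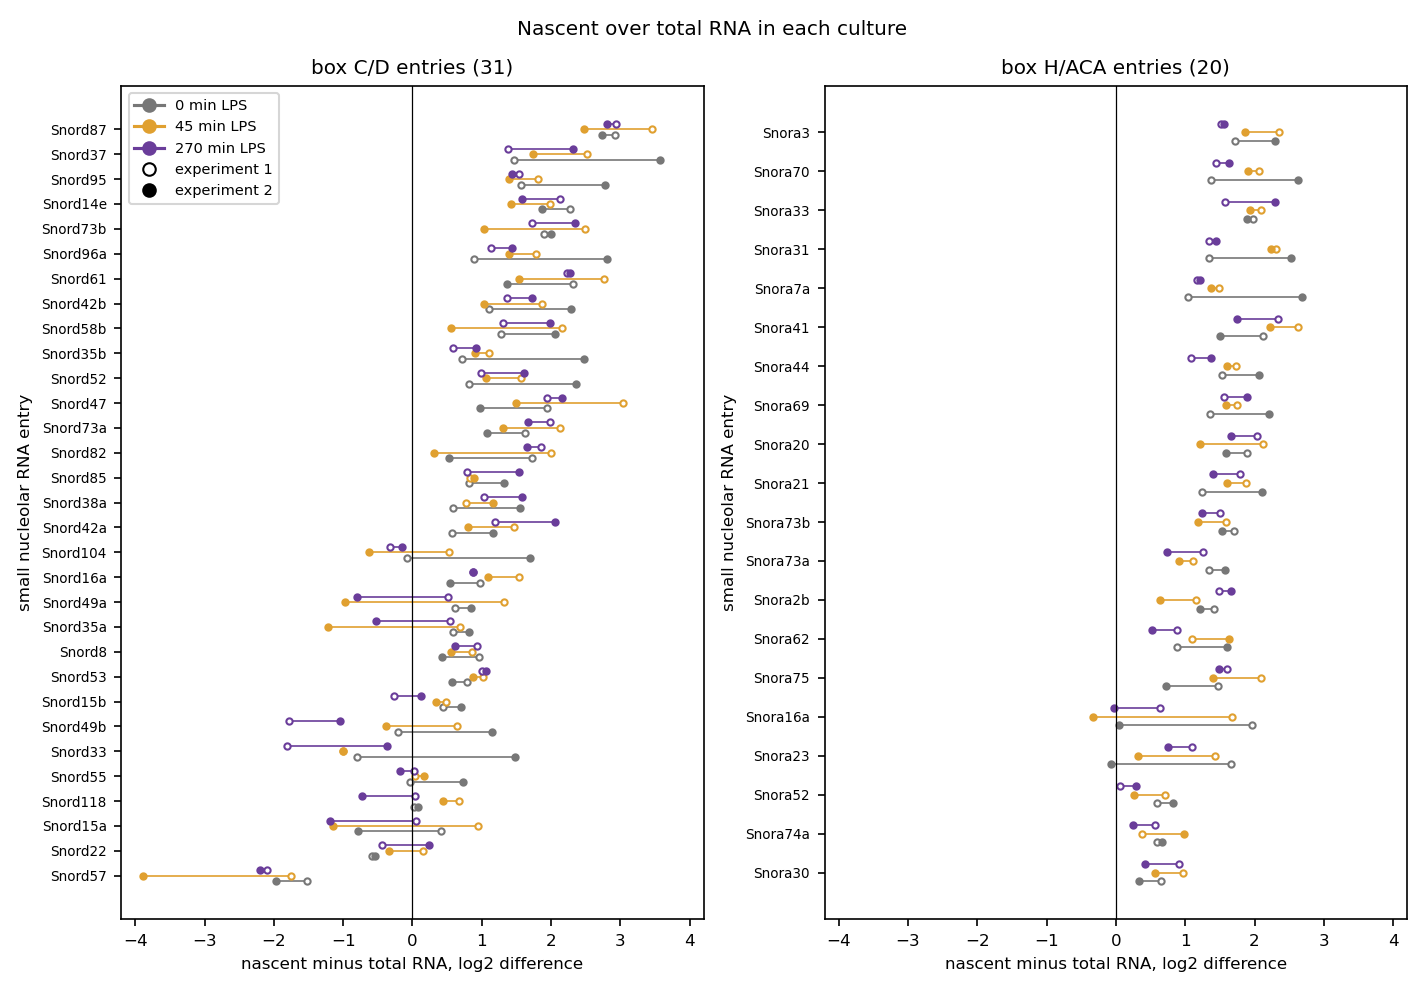
Nascent minus total RNA (log2, horizontal axis) of each of the 31 box C/D and 20 box H/ACA entries (vertical axis), with open circles for experiment 1 and filled circles for experiment 2, joined by a line, at 0, 45 and 270 min of LPS. Most entries lie right of 0; Snord87 is highest and Snord57 lowest on the box C/D side, and no box H/ACA entry has a mean below 0.

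Snord57 ran the other way. It lies in Nop56, which encodes one of the box C/D core proteins. Its nascent levels were 7.23 and 7.68 at 0 min, 6.87 and 6.20 at 45 min, and 6.97 and 6.97 at 270 min. Its total RNA levels were 8.76 and 9.64, then 8.62 and 10.09, then 9.08 and 9.18. Every total array was above every nascent array, and the nascent over total difference was -1.74 ± 0.32 (adjusted p = 0.000604), -2.82 ± 0.32 (adjusted p = 1.88e-06) and -2.15 ± 0.32 (adjusted p = 6.84e-05). At 45 min it was -1.76 in experiment 1 and -3.88 in experiment 2, and 1 of the 2 nascent arrays there, that of experiment 1, was above background. The nascent over total difference of Nop56 was 0.76, 0.59 and -0.08, none of them called.

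Snord33, in Rpl13a, was called lower in nascent RNA at 45 min (-0.999 ± 0.36, adjusted p = 0.0470) and 270 min (-1.09 ± 0.36, adjusted p = 0.0458), and Snord49b at 270 min. The nascent arrays of Snord33 were under background at both times, and its 2 groups overlapped at 270 min. Nascent RNA was at least 1.29-fold lower at 45 min and at least 1.12-fold lower at 270 min. Total RNA of Snord33 at 270 min read 8.13 in experiment 1 and 5.64, under background, in experiment 2. The bound at 270 min thus rested on experiment 1. Both Snord33 calls were lost without the intensity trend in the variance prior and under several other settings. Further box C/D entries were not called at 0, 45 or 270 min, among them Snord22 (-0.56, -0.09 and -0.10), Snord55 (0.34, 0.10 and -0.08) and Snord15a (-0.18, -0.10 and -0.57). With the experiment as a replicate block, Snord22 was called lower at 0 min, which makes 2 box C/D entries lower there, and Snord15a was called at 270 min. Snord15a was also called at 270 min without either culture at 0 min or without that of experiment 1 at 270 min. Snord118 was under background in all 6 groups, as were Snord38a and Snord58b, so no ratio is given for them, although Snord38a and Snord58b are among the box C/D entries called higher at each time.

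Across entries, longer annotated snoRNAs tended to have the smaller nascent over total difference. At 0 min Spearman's rho between length and difference was -0.40 over 31 box C/D and -0.35 over 20 box H/ACA entries, and at 270 min it was -0.39 and -0.62. These are descriptions across entries of the same arrays, several of which share a host.

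For 26 entries the single containing gene was itself measured (22 hosts), and the hosts had the opposite balance between fractions. Their median nascent over total difference was -0.97 at 0 min, -0.58 at 45 min and -0.70 at 270 min, with 13, 12 and 12 of 22 called lower and 3, 2 and 0 called higher. The entry had the higher difference in 25 of 26 pairs at 0 min, 25 at 45 min and 24 at 270 min. Snord57 was the exception at each time, joined at 270 min by Snora52 (0.18 against 0.21 for its host Rplp2).

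In Tpt1 the contrast was wide. Tpt1 read 11.28 and 11.66 in nascent and 12.51 and 13.09 in total RNA at 0 min, a difference of -1.33 ± 0.15 (adjusted p = 4.11e-06), against the 1.93 of Snora31. Rpl23a, a protein of the large ribosomal subunit, read 9.52 and 8.90 in nascent and 11.33 and 11.51 in total RNA, a difference of -2.21 ± 0.21. Snord42b in the same gene read 8.03 and 8.85 in nascent and 6.92 and 6.56 in total RNA, a difference of 1.70 ± 0.26. In both genes the snoRNA entry was higher in the nascent fraction while the host was higher in the total fraction, on all arrays at 0 min.

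**Figure D2:**
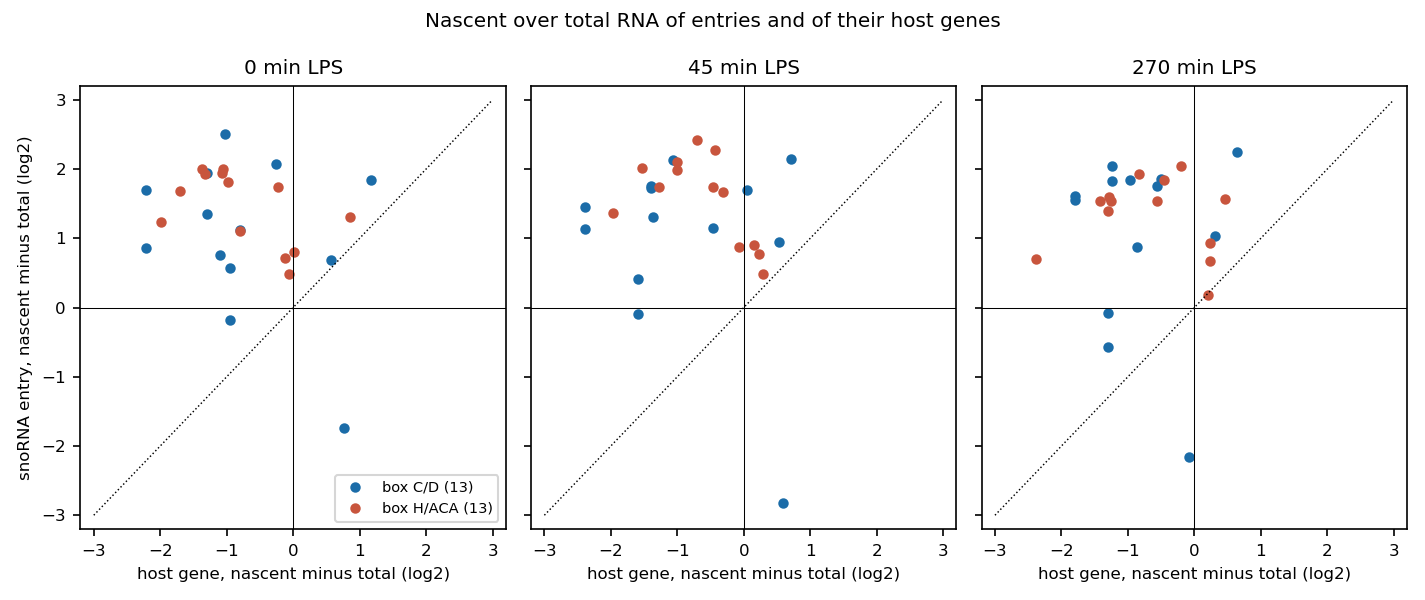
Nascent minus total RNA (log2) of 13 box C/D and 13 box H/ACA entries (vertical axis) against that of the gene that contains each (horizontal axis), at 0, 45 and 270 min of LPS; the dotted line marks equal values. Points lie above the line in 25, 25 and 24 of 26 pairs, and the lowest point in each panel is Snord57.

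Entries in coding and in non-coding hosts were also counted apart. Of 37 entries in protein-coding genes 29 were higher in nascent RNA at 0 min (median 1.35), and of 10 in non-coding genes 5 were (median 0.90). This difference between host classes was not tested. Entries that share a host are not independent: 10 hosts held 2 entries each. At 0 min both entries of a host had the same sign in 9 of 10 hosts, and they were a median of 0.48 apart. The gap between entries of different hosts was not computed. As 48 of 51 entries had a positive difference at 0 min, a shared sign says little about sharing a host. At that time Snord95 and Snord96a in Rack1 differed between fractions by 2.18 and 1.85, and Snord33 and Snord35a in Rpl13a by 0.34 and 0.70. At 270 min the values were 1.49 and 1.29 in Rack1, and -1.09 and 0.01 in Rpl13a, where the nascent arrays of Snord33 were under background.

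Few snoRNA entries were called between times of LPS, and in nascent RNA at 45 min their share was near that of all genes. In nascent RNA at 45 min 1 box C/D entry rose and 1 fell, and 1 box H/ACA entry rose and 1 fell, beside 3.05% of all genes called higher and 5.88% lower. Over the entries 26 of 31 box C/D values were below 0 (median -0.48) and 13 of 20 box H/ACA values (median -0.27), while the median of all genes was 0.11. With the experiment as a replicate block 2 box C/D entries were called higher, the added one being Snord118, which is under background. Shares of all genes were counted only in the reported fit, not under this or other altered settings. Without the nascent array of experiment 1 at 0 min, 5 box C/D and 2 box H/ACA entries were called lower. With quantile scaling within each fraction these medians were -0.29, -0.06 and 0.02. The entry that rose in each class thus had a class median of the opposite sign.

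Snora31 rose in nascent RNA at 45 min. Its levels of 8.46 and 9.44 at 0 min became 9.96 and 10.31 at 45 min and 8.63 and 8.87 at 270 min. Both arrays at 45 min were above both at 0 min, and those at 270 min fell back between the 0 min arrays. The change at 45 min was 1.19 ± 0.29 (limma on 12 arrays, adjusted p = 0.0192). It was no longer called without the nascent array of experiment 1 or 2 at 45 min, or that of experiment 1 at 0 min (adjusted p = 0.0542, 0.178 and 0.117). In total RNA the change was 0.85 ± 0.29 (adjusted p = 0.697). Tpt1 changed by 0.86 ± 0.26 in nascent (adjusted p = 0.0529) and -0.04 in total RNA, neither change called on its own. The difference between these responses within cultures was called for Tpt1 (0.90 ± 0.21, adjusted p = 0.0429; 1.01 in experiment 1 and 0.79 in experiment 2), and that of Snora31 was 0.34 and not called.

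The 150 bases before the RefSeq start of Tpt1 are shown because Snora31 and Tpt1 both had positive values in nascent RNA at 45 min, with TGACG, the core of the cyclic AMP response element, in capitals on either strand.
Tpt1 (chr14:75845106-75845255, + strand): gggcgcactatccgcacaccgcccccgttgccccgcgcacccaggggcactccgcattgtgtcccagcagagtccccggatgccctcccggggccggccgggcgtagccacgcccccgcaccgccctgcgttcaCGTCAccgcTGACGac

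Counted on both strands within 250 bases before the start, TGACG was found in 42.4% of 33 windows of snoRNA hosts and in 17.8% of all 32851 windows. CCAAT was found in 42.4% and 33.8%, TATAA in 24.2% and 22.8%, and GAANNTTC in 3.03% and 6.69%. These counts describe letters only.

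Snord14e rose in both fractions at 45 min. In nascent RNA it read 11.76 and 11.74 at 0 min, 12.56 and 12.49 at 45 min, and 11.82 and 11.65 at 270 min. In total RNA it read 9.48 and 9.87, then 10.58 and 11.07, then 9.69 and 10.07. The arrays at 45 min were the highest of either fraction and did not overlap with those at 0 min. The change was 0.77 ± 0.21 in nascent (adjusted p = 0.0386) and 1.15 ± 0.21 in total RNA (adjusted p = 0.0194).

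The nascent call was lost with quantile scaling (0.52, adjusted p = 0.172), with arrays centred on their medians (0.71, adjusted p = 0.0784) and without any single nascent array (adjusted p = 0.0597 to 0.192). The total RNA call was lost without experiment 2 at 45 min (0.90, adjusted p = 0.309) and without experiment 1 at 0 min (0.95, adjusted p = 0.272). Snord14e was the 1 entry of 51 called in total RNA at 45 min, where 0.662% of all genes were called higher and 0.0201% lower. At an unadjusted p below 0.05 limma gave 3 box C/D and 2 box H/ACA entries there, and 608 of all 19938 genes. Its host Hspa8 changed by 0.39 ± 0.16 in nascent (adjusted p = 0.162) and 0.07 in total RNA, neither called.

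Snord95 and Snora2b fell in nascent RNA at 45 min. Snord95 read 9.12 and 9.77 at 0 min, 8.46 and 8.20 at 45 min, and 9.36 and 8.66 at 270 min, so both arrays at 45 min lay under both at 0 min. The change was -1.12 ± 0.30 (adjusted p = 0.0351), and Snord96a in the same host changed by -0.52, which was not called. It was lost without either nascent array at 45 min or without experiment 2 at 0 min (adjusted p = 0.0906 to 0.350).

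Snora2b read 7.51 and 6.90 at 0 min, 6.59 and 5.83 at 45 min, and 7.33 and 7.49 at 270 min. Of the arrays at 45 min, that of experiment 1 was above background and that of experiment 2 was not. The change was -0.999 ± 0.25 (adjusted p = 0.0258), and was lost without experiment 2 at 45 min (-0.62, adjusted p = 0.307) or experiment 1 at 0 min (-0.69, adjusted p = 0.159). Its host Kansl2, a subunit of a histone acetyltransferase complex, fell in nascent RNA at 45 min (-0.97 ± 0.24, adjusted p = 0.0212). At 270 min Kansl2 was still lower by -0.82 ± 0.24, while Snora2b was at 0.20 ± 0.25 and not called.

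At 270 min in nascent RNA 1 box C/D entry rose and 1 fell, and no box H/ACA entry was called in either direction. Of all genes 8.87% were called higher and 14.2% lower. At an unadjusted p below 0.05 limma gave 6 box C/D entries, 1 box H/ACA entry and 7154 of all 19938 genes. The median change was -0.05 for box C/D and -0.08 for box H/ACA, and 0.07 and 0.23 with quantile scaling, so the sign of the class median depends on the scaling. With the experiment as a replicate block 2 box C/D entries were called higher and 2 lower, Snord22 and Snord49a being added. No share of all genes was counted under this setting or the next. Without the nascent array of experiment 1 at 0 min, 5 box C/D and 3 box H/ACA entries were called lower.

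Snord53, in Wdr43, a gene of early ribosome assembly, read 7.47 and 7.15 at 0 min, 6.48 and 6.94 at 45 min, and 8.15 and 8.38 at 270 min in nascent RNA. The 270 min arrays were above all others. The change was 0.96 ± 0.23 (adjusted p = 0.00693), and it was lost without experiment 2 at 270 min (0.84, adjusted p = 0.0698) or at 0 min (0.80, adjusted p = 0.0795). Wdr43 read 10.68 and 10.47 at 0 min and 11.75 and 11.60 at 270 min, a rise of 1.10 ± 0.18 (adjusted p = 0.000526). In total RNA Wdr43 rose by 1.35 ± 0.18, and Snord53 changed by 0.60 ± 0.23 (adjusted p = 0.0836), which was called with the replicate block.

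Snord49b, in the non-coding RNA 2410006H16Rik whose start is given above, read 7.53 and 9.17 at 0 min, 8.02 and 7.88 at 45 min, and 6.69 and 6.98 at 270 min in nascent RNA. In total RNA it read 7.74 and 8.02, then 7.37 and 8.27, then 8.48 and 8.03. The nascent arrays at 270 min were the lowest, but the 0 min arrays were 1.64 apart, the experiment 2 array being the high one. The nascent change was -1.51 ± 0.42 (adjusted p = 0.0175), and without experiment 2 at 0 min it was -0.69 (adjusted p = 0.248). It was also lost without either nascent array at 270 min (adjusted p = 0.107 and 0.0552). Snord49a, in the same host, changed by -1.29 ± 0.50 (adjusted p = 0.0838) and was called with the replicate block.

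**Figure D3:**
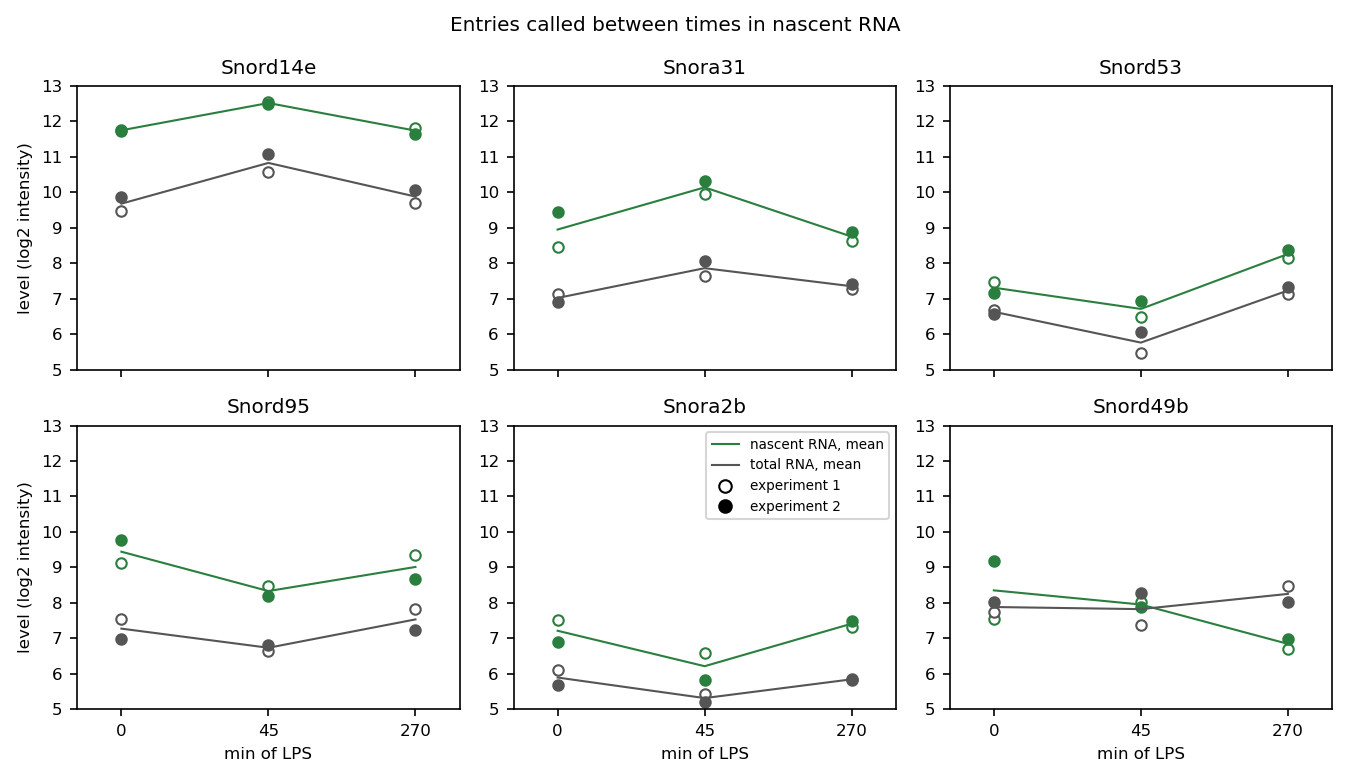
Log2 intensity (vertical axis) of the 6 entries called between times in nascent RNA, at 0, 45 and 270 min of LPS (horizontal axis), with open circles for experiment 1, filled circles for experiment 2 and lines through group means, nascent RNA in green and total RNA in grey. Snord14e and Snora31 are highest at 45 min, Snord53 at 270 min, Snord95 and Snora2b are lowest at 45 min in nascent RNA, and the nascent mean of Snord49b falls below its total mean at 270 min.

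In total RNA at 270 min no entry was called in either direction, beside 7.02% of all genes called higher and 12% lower. Unadjusted limma p-values below 0.05 were found for 1 box C/D and 0 box H/ACA entries and for 5927 of all 19938 genes. With the replicate block or with quantile scaling 1 box C/D entry was called higher, Snord53. The class medians were 0.16 for box C/D and 0.18 for box H/ACA, and that of all genes 0.07.

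The response to LPS was compared between fractions within cultures. At 45 min no entry had a called difference in either direction, beside 0.476% of all genes called higher and 0.567% lower. By limma 3 box C/D entries, 0 box H/ACA entries and 2368 of all 19938 genes had an unadjusted p below 0.05. With the replicate block 3 box C/D entries were called lower, Snord33, Snord35a and Snord57, with differences of -1.34, -0.97 and -1.08. At 270 min 1 entry was called, Snord49b, whose response in nascent RNA was below that in total RNA by -1.88 ± 0.41 (adjusted p = 0.0282; -1.57 in experiment 1 and -2.19 in experiment 2), beside 0.120% of all genes called higher and 0.722% lower. With the replicate block 3 were called lower, with Snord33 (-1.43) and Snord104 (-1.04) added. No share of all genes was counted with the block or with a culture left out. The Snord49b call was lost with quantile scaling, with only genes above background tested, without the pairing of fractions, and without 4 of the 6 cultures in turn (experiment 2 at 0 min, either at 45 min, experiment 1 at 270 min). Without the culture of experiment 1 at 0 min, 8 box C/D entries were called lower at 45 min and 7 at 270 min.

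In some groups most snoRNA entries differed in the same direction between the 2 arrays. Whether their gaps were larger than those of other genes was not tested. In total RNA at 45 min 28 of 31 box C/D and 17 of 20 box H/ACA entries were higher in experiment 2 (median gaps 0.68 and 0.54), where the median over all genes was -0.05. In nascent RNA at 0 min 24 of 31 and 15 of 20 were higher in experiment 2 (median gaps 0.52 and 0.37). The experiments thus set the change at 45 min apart: in total RNA the box C/D median was -0.50 in experiment 1 and 0.17 in experiment 2. The part of the experiment in the results was not tested beyond the replicate block.

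**Figure D4:**
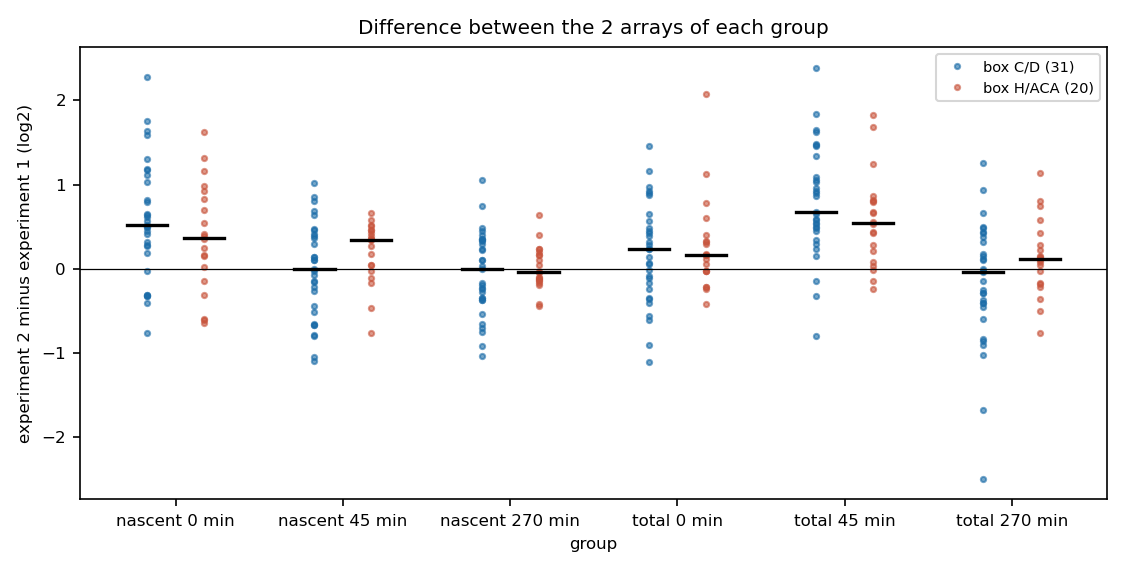
Experiment 2 minus experiment 1 (log2, vertical axis) of each box C/D (31) and box H/ACA (20) entry in each of the 6 groups (horizontal axis), with black bars at class medians. The entries of both classes lie mostly above 0 in total RNA at 45 min and in nascent RNA at 0 min.

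The proteins that hold snoRNAs were read from lists of genes. As background, the share of all genes called between times in nascent RNA was 3.05% upward and 5.88% downward at 45 min, and 8.87% and 14.2% at 270 min. For total RNA the shares were 0.662% and 0.0201%, then 7.02% and 12%. Of the 4 box C/D core proteins (Fbl, Nop56, Nop58, Snu13) 0 were called between times in either fraction. At an unadjusted limma p below 0.05 there was 1 such difference, that of Nop56 in nascent RNA at 270 min (-0.74 ± 0.32). In that comparison 7154 of all 19938 genes were below the same level. Of the 4 box H/ACA core proteins, Dkc1, the pseudouridine synthase, fell in nascent RNA by -0.92 ± 0.18 at 45 min and -1.33 ± 0.18 at 270 min, and in total RNA by -1.22 ± 0.18 at 270 min. Its dimmer arrays were under background each time, which bounds the fall to at least 1.38, 1.28 and 1.52-fold. Nhp2, an RNA-binding subunit, rose in nascent RNA by 1.32 ± 0.25 at 45 min (adjusted p = 0.00492) and was lower by -0.81 ± 0.25 at 270 min (adjusted p = 0.0305), with 0.25 and 0.07 in total RNA. Gar1 and Nop10 were not called between times.

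Of 11 assembly factors, Znhit3 fell in nascent RNA at 45 min (-0.82 ± 0.24, adjusted p = 0.0476) and Rpap3 in total RNA at 270 min (-0.82 ± 0.18, adjusted p = 0.00511), and the remaining comparisons between times gave no call. Of 6 measured host gene RNAs (Gas5, Snhg5, Snhg11, Snhg15, Snhg16, Snhg17), 5 were higher in nascent than in total RNA at 0 and at 45 min and 3 at 270 min, where 7.58%, 11.2% and 6.24% of all genes were. Between times 0 were called by limma. Unadjusted p-values were below 0.05 for Snhg16 (-0.89) and Snhg17 (-0.80) in nascent RNA and for Snhg17 (-0.59) in total RNA, all at 45 min. Of all 19938 genes, 4578 in nascent and 608 in total RNA were below 0.05 at that time. Gas5 read 10.44 and 10.93 in nascent and 8.77 and 9.87 in total RNA at 0 min, a difference of 1.37 ± 0.22. The called non-coding hosts thus had the opposite sign to the median of the 22 protein-coding hosts above.

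The 3 Cajal body snoRNA entries, which belong to related guides that modify spliceosomal RNA, did not move as one. Scarna13 read 8.45 and 9.51 in nascent RNA at 0 min, 7.07 and 7.22 at 45 min, and 7.37 and 7.32 at 270 min, and it fell by -1.83 ± 0.26 (adjusted p = 0.000719) and -1.63 ± 0.26 (adjusted p = 0.000420). Scarna8 read 6.40 and 6.28 at 0 min and 4.80 and 5.37 at 45 min in nascent RNA. It was called lower at 45 min (adjusted p = 0.00365), but both arrays at 45 min lay under background and the 0 min arrays at its edge, so no fold is given. Scarna17 read 8.27 and 8.49 in nascent and 10.67 and 10.27 in total RNA at 0 min, and its nascent over total difference was -2.10 ± 0.21, -2.63 ± 0.21 and -2.13 ± 0.21 at the 3 times. Like Snord57, Scarna17 was higher on every total array than on every nascent array.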

How the data were processed

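The deposited values are linear intensities, 1 per probe set. The submitters' processing notes name RMA and the Affymetrix Expression Console as what the authors used. Tool versions, and whether the arrays were normalised jointly, were not given in the sources used here. RMA includes scaling that hides a shift shared by all genes, so levels are not amounts per cell. Log2 was taken, and 21789 probe sets with 1 symbol gave 19938 genes, with no filter. Tests used R 4.3.3 and limma 3.58.1 with an intensity trend: a mean per group over 12 arrays for the times, and a mean per time over 6 within-culture differences for nascent over total RNA and for the response difference, with Benjamini-Hochberg adjustment over all genes. Figures used Python 3.11.15 and matplotlib 3.10.9. The code was tested on simulated data. A bound is the brighter group's mean less the mean, per array, of the background level or the entry's own value, whichever is higher. Entries and lists were chosen with earlier results of these data known. Named entries are the 8 brightest of each class and, per comparison, up to 5 called entries per direction with agreeing signs in the experiments and the higher group above background; others were named as host partners or as exceptions, after their values were seen. The labels give 2 independent experiments, so the experiment number pairs the samples. Deviations from group means correlated between groups at -0.29 to 0.64 over all genes (median 0.33, 15 pairs of groups). Alternatives were the replicate block, 2 scalings, a background filter, all probe sets, no trend, no pairing of fractions, each array or culture left out, and the 99th percentile as background. Of 5 entries with 2 probe sets, 2 had identical copies and the others differed by at most 0.12. Host starts were read from RefSeq promoter windows (GRCm38.p6).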

Additional observations from a re-analysis of the deposited data

Results flagged for a closer look

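The response of Snord49b to 270 min of LPS differed between nascent and total RNA, by -1.88 (limma on within-culture differences, adjusted p = 0.0282). It was the 1 snoRNA entry called in this comparison without a replicate block. With the experiment as a replicate block Snord33 and Snord104 were also called at 270 min, and Snord33, Snord35a and Snord57 at 45 min. The Snord49b call was lost with quantile scaling, with only genes above background tested, without the pairing of fractions, and without 4 of the 6 cultures in turn.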

How the results depend on the processing

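Of 550 counts of called entries under the alternatives 480 stayed within 1.5 times the reported count. Of 282 values of single named entries 252 kept their call, and 0 reversed. These totals include counts of 0 and settings that leave out an array outside the contrast, which have little room to change. Every call of an entry between times was lost under some setting. The cause of each change was not tested. Shares of all genes were not counted under the alternatives, so whether calls of all genes changed alike is not known. With the experiment as a replicate block, box C/D counts became 2 (nascent RNA at 45 min, higher), 2 and 2 (nascent RNA at 270 min, higher and lower), 1 (total RNA at 270 min, higher), 2 (nascent over total at 0 min, lower), and 3 and 3 (response differences at 45 and 270 min, lower). With quantile scaling they became 0 (nascent RNA at 45 min, higher; also with median centring), 2 (nascent RNA at 270 min, higher), 1 (total RNA at 270 min, higher), 2 and 1 (nascent over total at 0 and 45 min, lower) and 0 (response difference at 270 min). The count lower at 45 min was also 1 with the background filter, all probe sets, no trend and no pairing, and the response difference at 270 min gave 0 with the filter and without pairing. The block changed no other count by over 1.5 times. With the 99th percentile as background 6 box C/D entries were above it in all groups, in place of 15.

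Without each array or culture in turn, counts of box C/D entries higher and lower ranged over 0 to 1 and 0 to 5 (nascent RNA, 45 min), 0 to 2 and 0 to 5 (nascent RNA, 270 min), 0 to 1 higher (total RNA, 45 min), 16 to 22 higher (nascent over total, 0 min), 7 to 21 and 1 to 2 (45 min), 16 to 20 and 2 to 4 (270 min). For response differences the ranges were 0 to 1 and 0 to 8 at 45 min and 0 to 1 and 0 to 7 at 270 min. For box H/ACA they were 0 to 1 and 0 to 2 (nascent RNA, 45 min), 0 to 3 lower (270 min), 15 to 18, 13 to 19 and 13 to 17 higher (nascent over total at 0, 45 and 270 min), and for response differences 0 to 1 and 0 to 1 at 45 min and 0 to 3 lower at 270 min. The highest counts of lower entries (5 and 5 in nascent RNA, 8 and 7 in the response differences) came without experiment 1 at 0 min. A lone array left in a group is assumed to vary like the others. With 2 arrays a group, and with total RNA signals of several entries near background, small changes are not detectable.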
